A study of Homo sapiens with 8 samples.

Results

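The genes described here drive the G1 phase of the cell cycle and the entry into S phase. They are the D-type cyclin genes CCND1, CCND2 and CCND3, the E-type cyclin genes CCNE1 and CCNE2, the cyclin-dependent kinase genes CDK4, CDK6 and CDK2, and the E2F transcription factor genes E2F1 and E2F8. The 10 genes were listed by name, and all 10 had at least 1 probe set paired with exactly 1 symbol, out of 17958 such genes on the array. Where a gene had several probe sets, the one with the highest mean over the 8 arrays was used, which concerned CCND1 alone. RNA was measured in KMH2, a line from Hodgkin lymphoma, and Ramos, a line from Burkitt lymphoma. The arrays fall into 3 groups, KMH2 given glucosamine for 24 h (3 arrays), Ramos (2 arrays) and KMH2 control (3 arrays). No glucosamine dose is stated, and all cells grew in RPMI medium with serum and antibiotics. By title both Ramos arrays are controls, but by the series' design text one was taken before glucosamine and the other after it. Ramos was therefore treated as a cell line with no treatment assigned. The KMH2 replicates are biological per the design text. Nothing says that of the Ramos arrays. P-values for Ramos rest on the spread of all 8 arrays, to which the Ramos pair may add technical spread or a treatment effect. If 1 Ramos array was treated, the Ramos mean joins treated and untreated cells. Each line is a single established culture and stands for no other tumour of its kind.

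In G1, mitogen signals raise the D-type cyclins, which bind CDK4 and CDK6 and begin to phosphorylate the retinoblastoma protein RB. RB then releases the activator E2F factors, among them E2F1, which switch on genes of DNA replication and the E-type cyclins. Cyclin E bound to CDK2 completes RB phosphorylation and starts replication. E2F8 is an atypical E2F that represses E2F targets and is itself an E2F target. In B cells, CCND2 and CCND3 are the D-type cyclins in use, CCND3 being the one germinal centre B cells depend on, while CCND1 is normally silent in B cells and is switched on by translocation in mantle cell lymphoma.

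Promoter sequences were held for 5 of the 10 genes (CCND3, CCNE1, CDK4, CDK6 and E2F1) in the RefSeq table of build GRCh38.p14, from 250 bases before to 50 bases after each start. The 2 below are printed because they carry the site types of the 2 transcription factor families discussed here, E2F and MYC. The E2F site was searched as TTTCCCGC, TTTGGCGC, TTTCGCGC or TTTGCCGC, and the E-box, the site of MYC and its relatives, as CACGTG, both on either strand. No match of one overlapped a match of the other. Capitals mark the matches, and both sequences read 5′ to 3′ along the gene.
E2F1 promoter, chr20:33686336-33686635, minus strand: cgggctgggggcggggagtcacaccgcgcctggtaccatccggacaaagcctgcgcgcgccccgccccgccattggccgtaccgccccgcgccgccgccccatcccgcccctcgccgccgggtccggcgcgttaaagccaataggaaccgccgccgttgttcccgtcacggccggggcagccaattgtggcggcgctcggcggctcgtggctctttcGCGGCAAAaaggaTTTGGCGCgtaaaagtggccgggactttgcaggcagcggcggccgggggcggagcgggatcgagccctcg
CDK4 promoter, chr12:57752261-57752560, minus strand: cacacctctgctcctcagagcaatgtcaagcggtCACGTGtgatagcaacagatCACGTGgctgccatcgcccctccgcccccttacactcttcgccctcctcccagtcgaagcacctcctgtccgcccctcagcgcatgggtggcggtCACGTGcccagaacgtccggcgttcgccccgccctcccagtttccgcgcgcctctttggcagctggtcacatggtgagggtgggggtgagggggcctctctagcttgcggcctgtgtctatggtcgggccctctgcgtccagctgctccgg
The E2F1 window held 2 E2F sites, 33 and 20 bases before the start, a number reached by 0.145% of the 35116 promoters in the table. One such site or more was found in 3.31% of promoters. The CDK4 window held 3 E-boxes, 216, 196 and 101 bases before the start. At least 3 were found in 0.094% of promoters and at least 1 in 7.26%. One CDK6 window held an E-box 30 bases after the start, and no window of CCND3 or CCNE1 held either motif, which says only that these letters were not in these windows.

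The arrays were on a common scale, with medians from 5.62 to 5.68 on the log2 scale. Replicates differed by a median SD of 0.080 in KMH2 glucosamine, 0.113 in Ramos and 0.067 in KMH2 control. All levels below are log2 signals, and levels of different genes were not ranked against each other. Differences between 2 genes and averages over lists were compared only between arrays. B-cell markers averaged 5.94 to 6.27 on the glucosamine arrays, 10.51 to 10.57 on the Ramos arrays and 6.03 to 6.33 on the KMH2 control arrays. Among them MS4A1 (CD20) was 7.24 and CD79A 6.04 higher in Ramos, each difference being Ramos minus KMH2 control on the log2 scale. Of 8 Hodgkin markers 5 were lower in Ramos, BATF3 (-3.79) and TNFRSF8 (CD30, -2.87) among them, CCL22 was higher (2.10, limma adjusted p = 1.59e-05, a gene singled out after its values were seen) and 2 did not pass. In KMH2, MS4A1 and CD79A averaged 3.80 and 5.54 with glucosamine and 3.70 and 5.75 in control. After glucosamine 1 of 7 B-cell markers fell, PAX5 by 0.37 (limma adjusted p = 0.0105), and 6 did not pass. In the same comparison 4 of 8 Hodgkin markers fell, TNFRSF8 by 0.73 and BATF3 by 0.87, and the list averaged 7.75 to 7.77 with glucosamine, 6.82 to 6.90 in Ramos and 8.10 to 8.12 in KMH2 control. T and NK cell markers averaged 5.39 to 5.43 with glucosamine, 4.94 to 4.95 in Ramos and 5.44 to 5.48 in KMH2 control, and 0 of 9 passed the test after glucosamine. Myeloid markers averaged 5.74 to 5.87, 5.08 to 5.14 and 5.84 to 5.97 in those groups, and after glucosamine CSF1R rose, CD14 fell and the other 2 of 4 did not pass. Fibroblast and epithelial markers averaged between 5.45 and 5.65 on all 8 arrays, and 0 of 7 passed after glucosamine. The part of these marker differences in the results below was not tested. In such bulk RNA fewer cells of a type and less RNA per cell cannot be told apart.

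The comparison of glucosamine-treated with control KMH2 cells asked how the line responds to the sugar. Of the 10 genes 8 fell, 0 rose and 2 (CCND1 and E2F1) did not pass the test. CCNE2 fell most, to 36.5% of its control level, followed by E2F8 at 64.3%, CDK6 at 71.6%, CDK2 at 71.7% and CCNE1 at 71.8%. CDK4 (79.6%), CCND2 (77.2%) and CCND3 (86.6%) fell less. The test was limma on the 6 KMH2 arrays, with p-values adjusted over 19181 probe sets and a threshold of 0.05. It called 13.9% of all probe sets lower and 11.9% higher, 25.8% in all. All glucosamine arrays lay below all control arrays for 8 of the 10 genes, as for 20.6% of probe sets, and 40.9% of probe sets had no overlap in either direction. The median difference was -0.43 over the 10 genes and 0.01 over all probe sets, on the log2 scale. With the spread estimated over all 8 arrays, Ramos included, 3 of the 8 falls were still called, namely CCNE2 (adjusted p = 0.00103), E2F8 (0.0443) and CDK6 (0.0151).

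**Figure D1:**
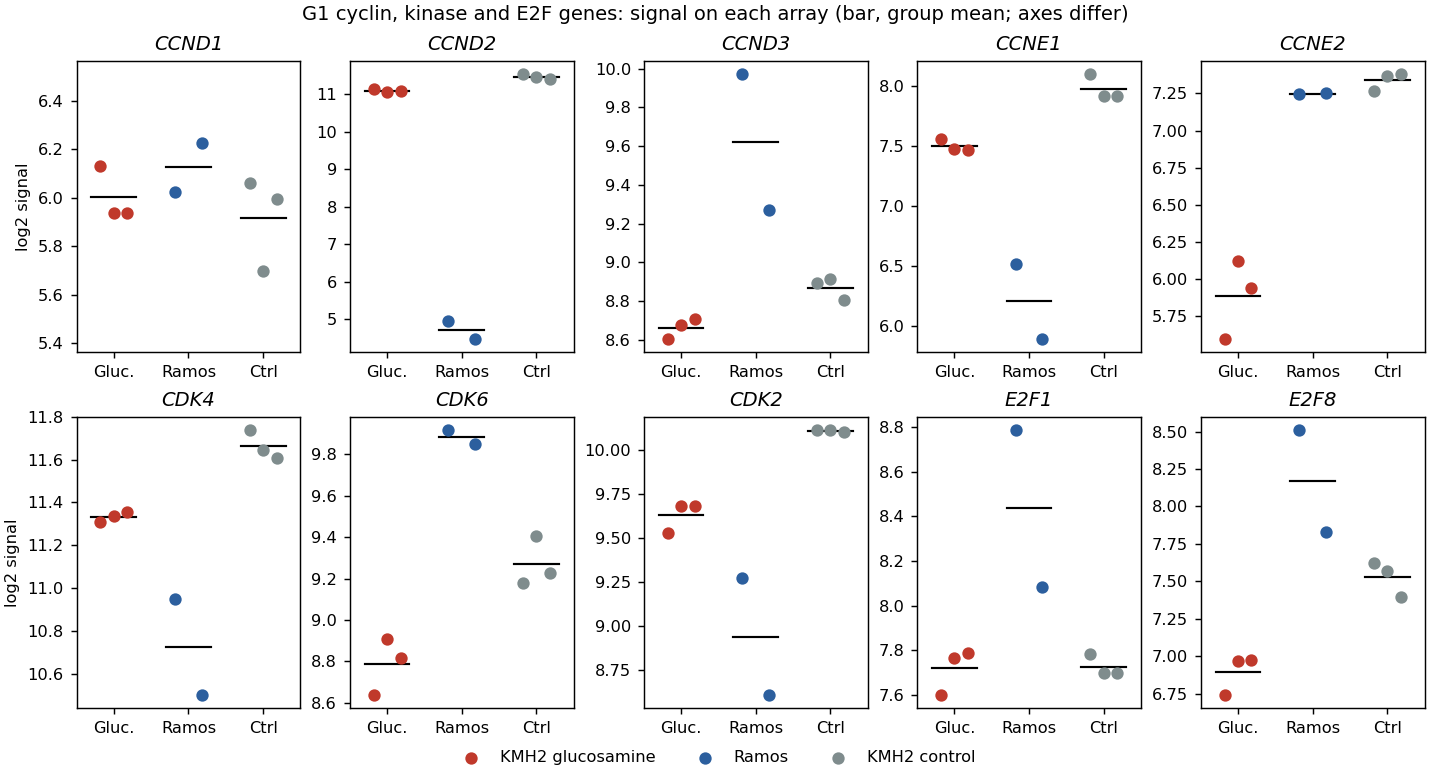
Log2 signal (vertical axis, a different range in each panel) of the 10 genes on each of the 8 arrays, with KMH2 glucosamine (Gluc.) and Ramos left of KMH2 control (Ctrl) and a bar at each group mean. All 3 glucosamine arrays lie below all 3 control arrays in 8 panels, and the Ramos arrays lie far below both KMH2 groups for CCND2.

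CCND2, a D-type cyclin of B cells, gave 11.14, 11.05 and 11.10 on the glucosamine arrays, 4.95 and 4.46 on the Ramos arrays, and 11.53, 11.46 and 11.42 on the KMH2 control arrays. The 3 groups were separate, with KMH2 control highest and Ramos lowest. After glucosamine it fell by 0.37 ± 0.06 on the log2 scale (SE, limma adjusted p = 0.00188), which is 1.30-fold (95% confidence interval 1.19 to 1.42). In Ramos it was 109-fold lower than in KMH2 control (88.5 to 134, adjusted p = 3.29e-09). Only 4 of the 17958 genes were lower still relative to KMH2 control. Both Ramos values lay under the median of all probe sets (5.70), where background of unknown size is part of the signal.

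CCND3, the D-type cyclin of germinal centre B cells, ran the other way between the lines. It gave 8.60, 8.68 and 8.70 with glucosamine, 9.97 and 9.27 in Ramos, and 8.89, 8.91 and 8.80 in KMH2 control, again without overlap. In Ramos it was higher by 0.75 ± 0.17 (SE, log2, limma adjusted p = 0.00808), or 1.68-fold. Without Ramos replicate 1 that difference was 0.40 (adjusted p = 0.00321). The fall after glucosamine was small, 0.21 ± 0.06 on the log2 scale (SE, adjusted p = 0.0290). Its call was lost when any 1 array other than control replicate 3 was left out (adjusted p from 0.0552 to 0.109), without both replicate 1 arrays (0.0936), with all probe sets of the table (0.0531) and with the shared spread (0.463).

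CCND1, the D-type cyclin of mantle cell lymphoma, gave 6.13, 5.94 and 5.94 with glucosamine, 6.02 and 6.23 in Ramos, and 6.06, 5.70 and 5.99 in KMH2 control. The groups overlapped, and all values were close to the median of all probe sets. The 95% confidence interval of the difference ran from -0.15 to 0.32 for glucosamine (adjusted p = 0.618) and from -0.08 to 0.49 for Ramos (0.219), on the log2 scale. Its second probe set read 5.80 to 5.90 with glucosamine, 5.76 and 6.20 in Ramos, and 5.58 to 5.75 in KMH2 control, and passed in neither comparison (adjusted p = 0.0826 and 0.0761).

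CCNE2, cyclin E2, stood at 5.59, 6.12 and 5.94 on the glucosamine arrays, 7.24 and 7.25 on the Ramos arrays, and 7.27, 7.36 and 7.38 on the KMH2 control arrays. Treated KMH2 was the low group, while Ramos lay just under KMH2 control. The fall after glucosamine was 1.45 ± 0.12 on the log2 scale (SE, limma adjusted p = 0.000145), which is 2.74-fold (95% confidence interval 2.26 to 3.32). It ranked 9 from the bottom of 17958 genes. The treated values lay near the median of all probe sets (5.70), where background of unknown size is part of the signal. Between the lines the difference was -0.09, with an interval from -0.41 to 0.22 (adjusted p = 0.629).

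CCNE1, cyclin E1, gave 7.55, 7.47 and 7.46 with glucosamine, 6.52 and 5.89 in Ramos, and 8.09, 7.92 and 7.91 in KMH2 control. The order was KMH2 control, treated KMH2 and Ramos, with no overlap. It fell by 0.48 ± 0.07 after glucosamine (SE, log2, adjusted p = 0.00135), and was 3.41-fold lower in Ramos than in KMH2 control (95% confidence interval 2.63 to 4.42, adjusted p = 3.98e-05). The value of Ramos replicate 2 lay near the median of all probe sets (5.70). Both E-type cyclin genes fell after glucosamine, and of the 2 only CCNE1 passed between the lines, a contrast that was not itself tested. The change after glucosamine in CCNE2 minus CCNE1 was tested on the array differences, which were -1.96, -1.35 and -1.52 with glucosamine and -0.82, -0.55 and -0.53 in control. These did not overlap, and their means differed by -0.98 (two-sided exact permutation p = 0.10, the smallest that 3 against 3 arrays can give, and 0.133 after adjustment over 4 pairs).

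**Figure D2:**
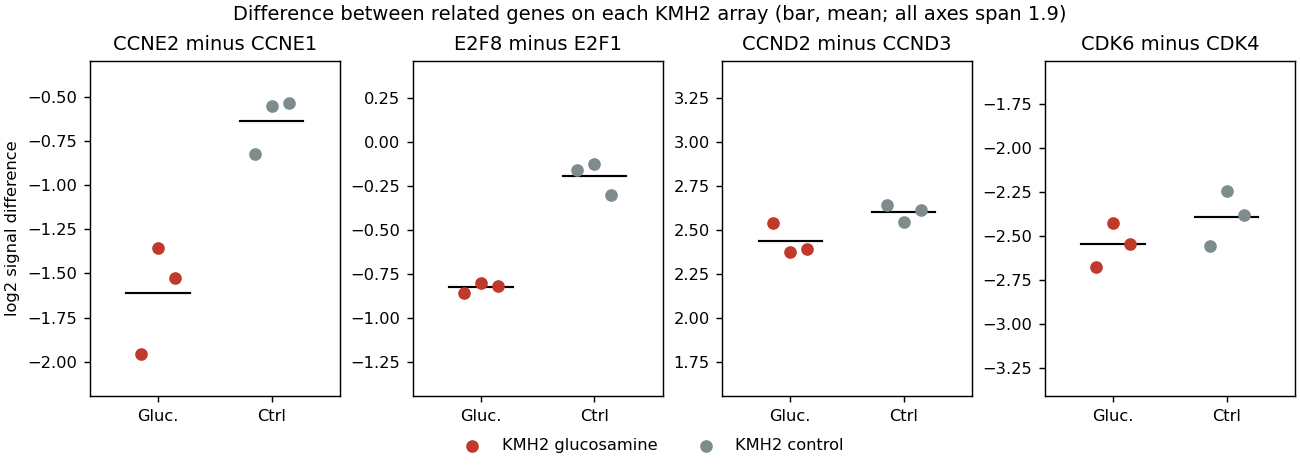
Difference in log2 signal between the genes of 4 related pairs (vertical axes, each spanning the same range) on the 3 KMH2 glucosamine arrays (Gluc.) and the 3 KMH2 control arrays (Ctrl), with a bar at each mean. The groups separate for CCNE2 minus CCNE1, E2F8 minus E2F1 and CCND2 minus CCND3, and overlap for CDK6 minus CDK4.

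CDK4 and CDK6, the partners of the D-type cyclins, both fell after glucosamine and differed in opposite directions between the lines. CDK4 gave 11.31, 11.34 and 11.36 with glucosamine, 10.95 and 10.50 in Ramos, and 11.74, 11.65 and 11.61 in KMH2 control. CDK6 gave 8.64, 8.91 and 8.81 with glucosamine, 9.92 and 9.85 in Ramos, and 9.18, 9.40 and 9.23 in KMH2 control. For neither gene did any groups overlap, and Ramos was the lowest group for CDK4 and the highest for CDK6. After glucosamine CDK4 fell by 0.33 ± 0.06 (adjusted p = 0.00328) and CDK6 by 0.48 ± 0.09 (0.00469), both on the log2 scale with SE from limma. In Ramos CDK4 was 1.91-fold lower (95% confidence interval 1.58 to 2.32, adjusted p = 0.000318) and CDK6 1.53-fold higher (1.30 to 1.80, 0.00129). The array differences CDK6 minus CDK4 overlapped between treated and control KMH2, with means that differed by -0.15 (two-sided exact permutation p = 0.30, adjusted 0.30). For CCND2 minus CCND3 the means differed by -0.17 and the arrays did not overlap (exact p = 0.10, adjusted 0.133).

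CDK2, the partner of cyclin E, gave 9.53, 9.68 and 9.68 with glucosamine, 9.27 and 8.61 in Ramos, and 10.12, 10.12 and 10.10 in KMH2 control. The groups were separate, with KMH2 control highest and Ramos lowest, the order also seen for CCNE1, CDK4 and CCND2. It fell by 0.48 ± 0.06 on the log2 scale after glucosamine (SE, limma adjusted p = 0.000816). In Ramos it was 2.25-fold lower than in KMH2 control (95% confidence interval 1.73 to 2.94, adjusted p = 0.000551).

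E2F1, the activator freed from RB, gave 7.60, 7.77 and 7.79 with glucosamine, 8.79 and 8.09 in Ramos, and 7.78, 7.70 and 7.70 in KMH2 control. Treated and control KMH2 overlapped, and both Ramos arrays were higher. The glucosamine difference was -0.01 on the log2 scale, with a 95% confidence interval from -0.16 to 0.15 (limma adjusted p = 0.952), so a fall as large as that of CCNE1 lies outside the interval. Its sign turned under 5 alternatives, from quantile normalization to leaving out single arrays. In Ramos E2F1 was higher by 0.71 ± 0.18 (SE, log2, adjusted p = 0.0118), and without Ramos replicate 1 by 0.36 (0.0123). These are the values of the gene whose promoter is printed above with 2 E2F sites, and whether the sites bear on them was not tested.

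E2F8, the repressor of E2F targets, gave 6.74, 6.97 and 6.97 with glucosamine, 8.51 and 7.83 in Ramos, and 7.62, 7.57 and 7.40 in KMH2 control. No groups overlapped, and treated KMH2 was lowest. It fell by 0.64 ± 0.09 after glucosamine (SE, log2, limma adjusted p = 0.00118). The array differences E2F8 minus E2F1 were -0.86, -0.80 and -0.82 with glucosamine and -0.16, -0.13 and -0.30 in control, and the groups did not overlap. Their means differed by -0.63 (two-sided exact permutation p = 0.10, adjusted 0.133). In Ramos E2F8 was higher by 0.64 ± 0.18 (SE, log2, adjusted p = 0.0223), by 0.30 without Ramos replicate 1 (0.0762) and by 0.98 without Ramos replicate 2 (0.000212). That call was also lost without KMH2 control replicate 2 (0.0531) or 3 (0.0735) and with Ramos and KMH2 control arrays only (0.0616). It was lost too with a replicate block (0.0533), which joined Ramos to KMH2 arrays by number alone.

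**Figure D3:**
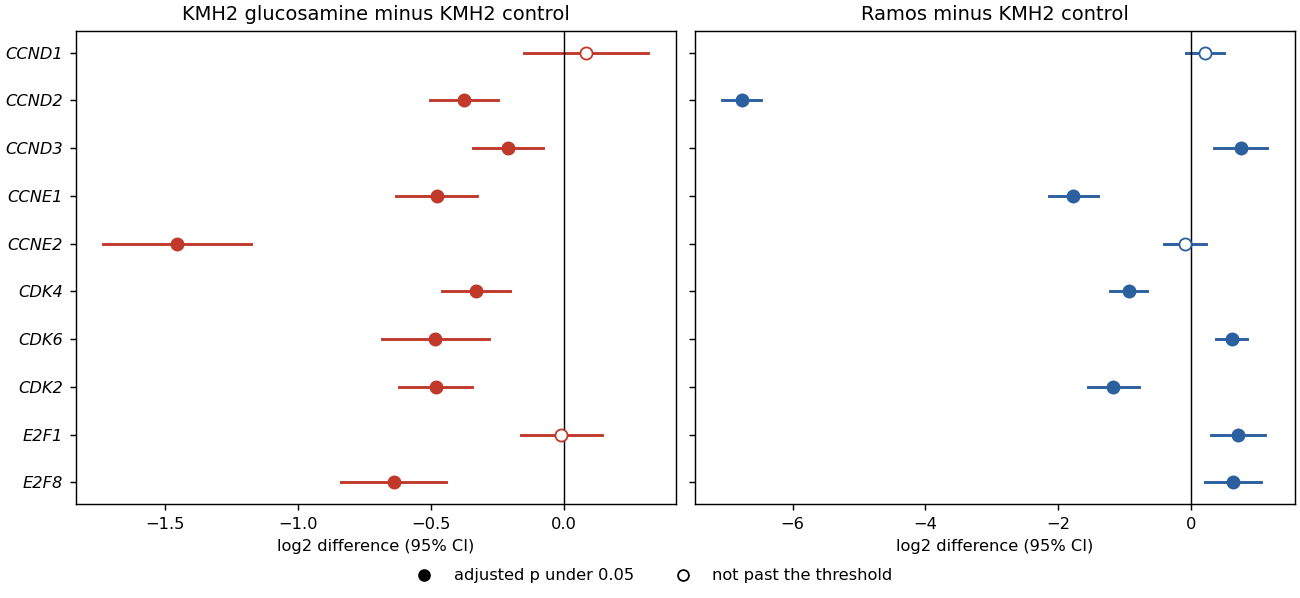
Log2 difference (horizontal axes, of different range) with its 95% confidence interval for the 10 genes, KMH2 glucosamine minus KMH2 control on the left and Ramos minus KMH2 control on the right, filled where the limma adjusted p was under 0.05. The left panel shows 8 filled points below 0, and the right panel 4 on each side of 0.

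Between the cell lines the genes split. In Ramos CCND3, CDK6, E2F1 and E2F8 were higher than in KMH2 control, CCND2, CCNE1, CDK4 and CDK2 were lower, and CCND1 and CCNE2 did not pass. That is 4 of 10 higher and 4 of 10 lower, where limma on all 8 arrays called 22.7% of probe sets higher and 21.2% lower, 43.8% in all. Ramos and KMH2 control arrays did not overlap for 9 of the 10 genes (all but CCND1), as for 64.1% of probe sets. The median difference was 0.06 both over the 10 genes and over all probe sets. Both comparisons share the 3 KMH2 control arrays, so their values stand side by side without a test of one against the other.

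The 2 Ramos arrays differed from each other in most of these genes. Replicate 2 was the lower for 8 of the 10, and for 51.8% of probe sets. It lay below replicate 1 by 0.49 for CCND2, 0.70 for CCND3, 0.63 for CCNE1, 0.45 for CDK4, 0.66 for CDK2, 0.70 for E2F1 and 0.68 for E2F8 on the log2 scale. CCNE2 (0.01 higher), CDK6 (0.07 lower) and CCND1 (0.20 higher) differed less. A gap of at least 0.4 in this direction, a size chosen after the values were seen, was found for 7 of the 10 genes and 11.1% of all probe sets. With 1 array on each side there is no test, and which array, if any, came from treated cells was not assigned.

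The rest of the pathway was read from lists of regulators and targets. Over all probe sets 13.9% were called lower and 11.9% higher after glucosamine, and 21.2% lower and 22.7% higher in Ramos. Among 20 measured classic E2F target genes, 16 fell after glucosamine, 0 rose and 4 did not pass, with a median difference of -0.47. UHRF1, a factor of DNA methylation maintenance, fell by 0.79 ± 0.06, POLA1, the catalytic subunit of DNA polymerase alpha, by 0.84 ± 0.07, and MCM6, a subunit of the replicative helicase, by 0.54 ± 0.06 on the log2 scale (SE). With all probe sets of the gene averaged the UHRF1 difference was -0.42, against -0.76 at its smallest with arrays left out. E2F2 (0.12) and E2F7 (0.03), which belong to this list too, did not pass. CCNA2, CDC25A, MYBL2 and RBL1, which fell, are counted here and again in lists below, so the lists are not independent. With all 8 arrays sharing the spread, 2 of the 20 were called lower. In Ramos 7 of the 20 were lower, among them POLA1 (-1.42) and E2F7 (-1.78), 2 were higher and 11 did not pass. That count rested on single arrays. It was 10 lower and 1 higher without Ramos replicate 1, and 5 lower and 10 higher without Ramos replicate 2. Without KMH2 control replicate 1 it was 2 lower and 1 higher, without replicate 2 or 3 it was 3 lower and 1 higher, and with Ramos and KMH2 control arrays only it was 2 lower and 1 higher.

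**Figure D4:**
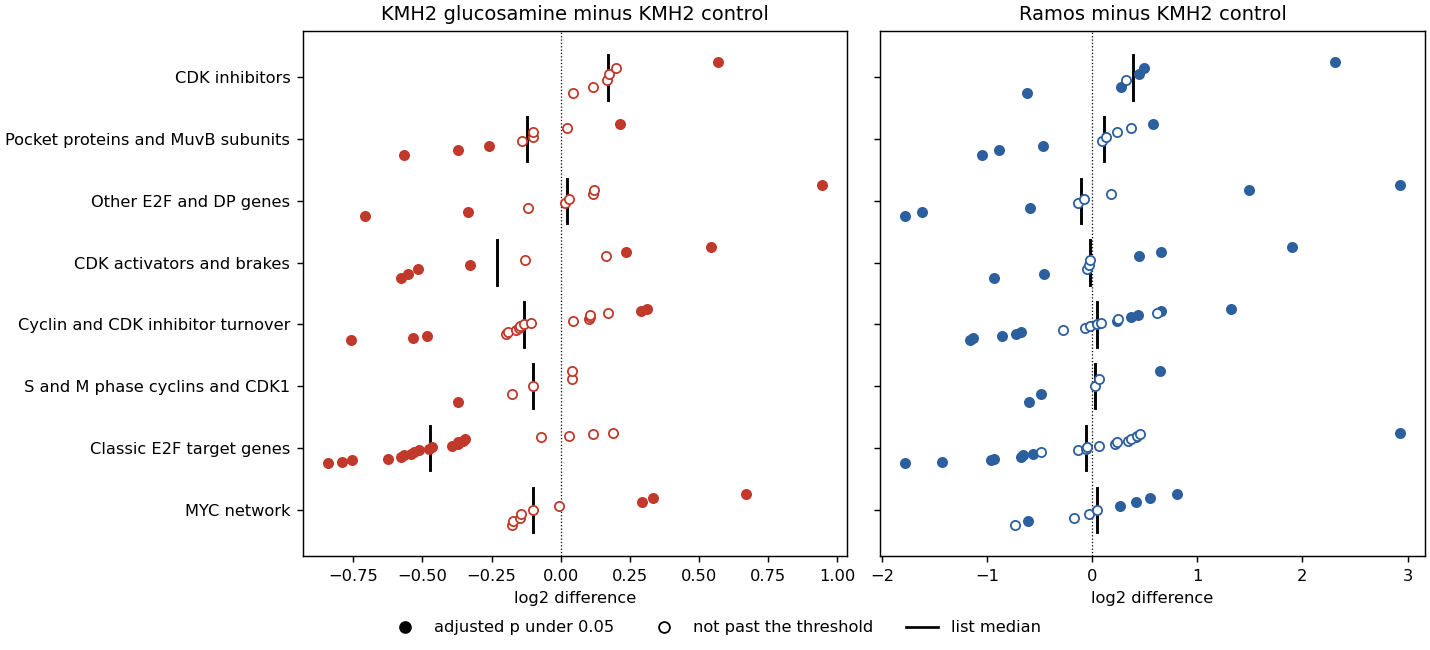
Log2 difference (horizontal axes, of different range) of each measured gene in 8 lists of the G1 pathway, KMH2 glucosamine minus KMH2 control on the left and Ramos minus KMH2 control on the right, filled where the limma adjusted p was under 0.05, with a bar at each list's median. On the left 16 of 20 E2F target genes are filled and below 0, and E2F5 at 0.95 is the rightmost point.

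Other E2F and DP genes went both ways. After glucosamine E2F5, an E2F that represses with the pocket proteins, rose to 8.92 ± 0.08, against 7.97 ± 0.16 in KMH2 control (SD, n = 3 each, limma adjusted p = 0.000226). E2F3, an activator, fell by 0.71, as did TFDP1, the DP partner of the E2F factors, by 0.34. The other 5 of 8 did not pass, E2F7, the close relative of E2F8, among them (0.03, adjusted p = 0.910). The median was 0.02. In Ramos E2F2, another activator, gave 8.28 and 7.70, against 5.06 ± 0.12 in KMH2 control (SD, n = 3), and E2F5 was higher by 1.49. The KMH2 control level of E2F2 lay under the median of all probe sets (5.70), where background of unknown size is part of the signal. E2F7 was lower by 1.78 (-1.78) and E2F3 by 0.59 (-0.59). In all 2 were higher, 3 were lower and 3 did not pass.

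Genes of the CDK inhibitors, the brakes on these kinases, mostly did not pass after glucosamine. Of 6 measured 1 rose, 0 fell and 5 did not pass, with a median of 0.17. The one that rose was CDKN2B (p15), an inhibitor of CDK4 and CDK6, by 0.57 ± 0.07 (SE, log2, limma adjusted p = 0.00101). Its level was 5.84 ± 0.11 with glucosamine and 5.27 ± 0.09 in KMH2 control (SD, n = 3 each). These lie near or under the median of all probe sets (5.70), where background of unknown size is part of the signal. CDKN1A (p21) at 0.17 (adjusted p = 0.121) and CDKN1B (p27) at 0.20 (0.0603) did not pass. In the paired fit CDKN1B passed (0.0406), which made 2 of 6 higher, as did array weights and leaving out control replicate 1. In Ramos CDKN2A, the gene of p16 and ARF, gave 7.65 and 7.46, against 5.24 ± 0.18 in KMH2 control (SD, n = 3). That control level lay under the median of all probe sets too. CDKN2D (p19) was higher in Ramos by 0.50 and CDKN2B by 0.45. CDKN1A was lower in Ramos by 0.62 (-0.62, adjusted p = 0.000893). Together 4 of the 6 were higher and 1 lower. CDKN2C, also listed, was not analysed here.

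Pocket protein and MuvB genes fell in 3 of 8 cases after glucosamine, 1 rose and 4 did not pass (median -0.12). RBL1 (p107), a pocket protein that is itself an E2F target, fell by 0.57, MYBL2, a partner of MuvB, by 0.37 and the MuvB subunit gene LIN52 by 0.26. RBL1 has 2 probe sets. With both averaged its difference was -0.29, so the set not used here differed less. With arrays left out the difference was -0.51 at its smallest. RB1 was 9.64 ± 0.15 with glucosamine and 9.74 ± 0.08 in KMH2 control (SD, n = 3 each, limma adjusted p = 0.462). With the shared spread 0 of the 8 passed in that limma fit, and the 1 rise (LIN54, named after its values were seen) was lost without any 1 array other than glucosamine replicate 3. RBL2 was not analysed here. In Ramos RB1 was higher by 0.58 (adjusted p = 0.00237), and LIN37 (-1.05) and LIN52 (-0.89), both MuvB subunits, were lower. These were among 1 higher, 3 lower and 4 not past the threshold. Without Ramos replicate 2 the balance turned, with 3 higher and 2 lower.

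Regulators of CDK phosphorylation fell in 4 of 8 cases after glucosamine, 2 rose and 2 did not pass (median -0.23). The CDK-activating phosphatase genes CDC25A (-0.58) and CDC25B (-0.52) and the CDK1-inhibiting kinase gene PKMYT1 (-0.55) fell. CDK7, the catalytic subunit of the CDK-activating kinase, rose by 0.54. In Ramos CCNH, the cyclin partner of CDK7, gave 8.18 and 7.70, against 6.04 ± 0.06 in KMH2 control (SD, n = 3). CDC25C was higher by 0.45 in Ramos, and MNAT1, the assembly factor of that kinase, was lower by 0.46 (-0.46). CDC25A was lower by 0.93 (-0.93), by 1.46 (-1.46) without Ramos replicate 1 and by 0.40 (-0.40) without Ramos replicate 2, and was not called without KMH2 control replicate 1 (limma adjusted p = 0.0586). In all 3 were higher and 2 lower, against 3 lower without either Ramos array and 1 lower without KMH2 control replicate 1.

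Among 17 genes of cyclin and inhibitor turnover, 3 fell after glucosamine, 2 rose and 12 did not pass (median -0.13). These counts were near the shares over all probe sets, 13.9% lower and 11.9% higher. SKP2, the F-box protein that marks p27 for degradation, fell by 0.53 ± 0.06 and FBXO4, linked to cyclin D1 degradation, by 0.76 ± 0.07 on the log2 scale (SE). FBXO4 averaged 5.19 with glucosamine and 5.95 in KMH2 control, near or under the median of all probe sets (5.70). GSK3B, a kinase that marks cyclin D1 for degradation, rose by 0.29. The count of falls depended on the setting. It was 5 with the replicate block, without dim probe sets or without both replicate 1 arrays, 6 with array medians subtracted or an eBayes trend, 7 with array weights and 0 with the shared spread, where 0 rose as well. In Ramos 5 were higher and 5 lower, where 22.7% and 21.2% of all probe sets were called in those directions. GSK3B was higher by 1.32 there, and CUL1, the scaffold of the SCF ligase, and FBXW7, which directs cyclin E to it, were lower by 0.68 (-0.68) and 0.86 (-0.86). SKP2 gave 9.88 and 8.47 in Ramos, against 10.31 ± 0.04 in KMH2 control (SD, n = 3), a difference of -1.13 (limma adjusted p = 0.0240). It was -1.84 without Ramos replicate 1 and -0.42 without Ramos replicate 2, and was not called without KMH2 control replicate 1 (0.0582), 2 (0.0601) or 3 (0.0664).

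Of the later cyclin genes and CDK1, 1 of 5 fell after glucosamine, 0 rose and 4 did not pass (median -0.10). CCNA2, cyclin A2 of S phase, fell by 0.37 ± 0.06 (SE, log2, limma adjusted p = 0.00239). CDK1, the mitotic kinase, differed by -0.18 ± 0.06 (SE, log2, adjusted p = 0.0808, and 0.0464 in the paired fit, where 2 of the 5 genes fell), and CCNB1 and CCNB2, its cyclin partners, differed by 0.04 each. In Ramos CDK1 was higher by 0.65, and CCNB1 (-0.60) and CCNB2 (-0.49) were lower.

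In the MYC network, MYC itself stood at 9.08 ± 0.03 after glucosamine and 9.26 ± 0.08 in KMH2 control (SD, n = 3 each, limma adjusted p = 0.0651). The 3 of 9 genes that rose were MXD1 (0.67), MXI1 (0.33) and MXD4 (0.29), which encode MAX partners that oppose MYC, while 0 fell. With the shared spread 0 of the 9 passed, while falls numbered 2 without dim probe sets and 3 with array weights, beside 3 rises each time. The call of MXD4 was lost without any 1 of glucosamine replicates 1 (adjusted p = 0.0784), 2 (0.0516) and 3 (0.112) or control replicates 2 (0.102) and 3 (0.109). MXI1 lost its call without glucosamine replicate 2 (0.0752) or 3 (0.0868). In Ramos, where MYC is driven by an immunoglobulin translocation, as in Burkitt lymphoma generally, MYC gave 10.40 and 9.72. It was higher than in KMH2 control by 0.81 ± 0.17 (SE, log2, adjusted p = 0.00483), and by 0.47 without Ramos replicate 1 (0.00154). MAX was lower by 0.61 (-0.61) and MXI1 higher by 0.55, among 4 higher and 1 lower of 9. Without Ramos replicate 2 the counts were 3 higher and 3 lower. CDK4, printed above with 3 E-boxes, was lower on these same Ramos arrays. Whether MYC or these sites bear on the CDK4 level was not tested.

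Genes of like pattern were found as the smallest Euclidean distance over the 8 arrays, after each gene's mean over the KMH2 control arrays was subtracted. Nearest to CCNE2 were RWDD2B (distance 0.73), EME1, of a recombination endonuclease (0.75), and XNDC1N (0.76), which fell by 1.14, 1.38 and 1.12 after glucosamine. Nearest to E2F8 were MAPK12, a p38 kinase (0.23), STK36 (0.23) and PRKDC, the DNA-dependent protein kinase (0.30). These fell by 0.60, 0.63 and 0.57 after glucosamine, and in Ramos MAPK12 and STK36 were higher by 0.59 and 0.55 while PRKDC, at 0.56, did not pass (limma adjusted p = 0.0541). Nearest to CCND2 were the chemokine gene CXCL10 (0.48), the metalloproteinase inhibitor gene TIMP1 (0.58) and S100A10 (0.64), at 6.60, 6.67 and 6.76 below KMH2 control in Ramos. Their Ramos means were 4.87, 4.79 and 4.49, under the median of all probe sets (5.70). After glucosamine CXCL10 fell by 0.45 (limma adjusted p = 0.00174) and S100A10 by 0.23 (0.0134), while TIMP1 (-0.16) did not pass (0.126). Nearest to CCNE1 were EXOSC4, of the RNA exosome (0.25), SELENOW (0.28) and DROSHA, the nuclear microRNA-processing enzyme (0.34), which fell after glucosamine by 0.37, 0.60 and 0.46 and were lower in Ramos by 1.80, 1.85 and 1.69. The likeness of STK36 in Ramos leaned on single arrays, since its difference was 0.25 without Ramos replicate 1 (adjusted p = 0.0990) and 0.84 without Ramos replicate 2.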

How the data were processed

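RNA of 2 lymphoma lines was measured on 8 single-channel Affymetrix HuGene-1_1-st-v1 arrays (biotin label), as the labels' protocols describe. The authors deposited log2 signals, 33297 probe sets per array, from 1.94 to 13.21. The unit was read from the values, and background correction, summarization and normalization are not given in the sources used here. Scanner files and detection calls were not used here, so the number of arrays limits the precision. Of the probe sets 19181 had 1 gene symbol in the platform annotation, 2055 had several and 12061 were unlisted, and only the first were named.

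Differences were fitted with R 4.3.3 and limma 3.58.1 (two-sided moderated test, Benjamini-Hochberg over 19181 probe sets, threshold 0.05), on the 6 KMH2 arrays for glucosamine and on all 8 arrays in 3 groups for Ramos. Every adjusted p of a single gene is from limma, checked on simulated data. Related genes were compared on array differences by exact permutation tests. Lists are described by counts and medians. The 10 genes, the lists and the rule for naming genes were chosen with earlier results of these data known. In each pathway list and comparison up to 3 genes past the threshold, those with the smallest p, were named (1 where none passed). Added to these were 12 regulators fixed by name and the 3 genes most like each of 4 of the 10 in pattern. Marker genes were named as examples outside this rule. A called value that leaving out 1 array moved past the threshold or by over 1.5 times is given with the value without it, or among the limits at the end.

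The design text describes the KMH2 replicates before and after treatment. Deviations from group means correlated between arrays of the same number (0.46, 0.23 and 0.23). A fit with the numbers as pairs (the replicate block, or paired fit) was therefore run as an alternative. For Ramos it joined arrays by number alone, and the correlations did not cover Ramos. The main fit and the exact permutation tests did not use pairs. Arrays 2 and 3 correlated about as well across numbers (0.25 and 0.18), so only number 1 stood apart in the data. The paired fit changed no call of the 10 genes after glucosamine, and added those of CDK1, CDKN1B and CUL1 among the other genes named. Alternatives covered the probe sets used, scaling, spread, weights, the replicate block and each array left out.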

Additional observations from a re-analysis of the deposited data

How the results depend on the processing

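Over both comparisons and all alternatives, 277 of 300 values of the 10 genes kept their direction and their side of the threshold, 17 lost their call and 6 turned sign. Sharing the spread of all 8 arrays moved the glucosamine calls most, to 2177 probe sets (against 4956) and 3 of the 10 genes lower (against 8). In that fit 23 of the 65 genes named lost their call. The 65 include genes that had no call to lose, such as CCND1 and E2F1. Among those that lost it were CCNE1 (adjusted p = 0.0745), CCND2 (0.0776), CDK2 (0.0788), CDK4 (0.0941), UHRF1 (0.101), POLA1 (0.133) and SKP2 (0.306). That fit left each difference as it was and changed only the estimate of spread, to which the 2 Ramos arrays then added. With a replicate block 5748 probe sets and 8 of the 10 genes were called after glucosamine, and 7741 probe sets in Ramos. The pair differences kept their direction with the block (exact sign-flip p = 0.25, the smallest 3 pairs allow, a test chosen after seeing the data). With 1 array of Ramos left out, the remaining one is assumed to vary like the other groups.

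Some differences that did not pass turned sign. After glucosamine E2F1 was 0.0245 with quantile normalization, 0.051 with array weights and 0.0812 without both replicate 1 arrays, which gave -0.0291 for CCNB1 and -0.0013 for E2F2. With 1 array left out in turn, the range was -0.0428 to 0.0517 for E2F1, -0.0452 to 0.0992 for CCNB1, -0.0671 to 0.1966 for E2F7, -0.0248 to 0.1555 for CCND1 and -0.0531 to 0.1247 for CDKN2A. In Ramos PKMYT1 was 0.0116 with quantile normalization. With 1 array left out, the range was -0.2419 to 0.1889 for PKMYT1, -0.0511 to 0.1787 for CCNA2, -0.3161 to 0.2155 for CDK7, -0.087 to 1.323 for FBXO4, -0.6657 to 0.325 for MXD4, -0.1456 to 0.6154 for RBL1, -0.0894 to 0.446 for TFDP1, -0.7191 to 0.1129 for EME1, -0.4323 to 0.0205 for RWDD2B and -0.376 to 0.2549 for XNDC1N, each turned by leaving out a Ramos array.

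Calls also lost with 1 array left out, after glucosamine, were those of MNAT1 (0.0598) and S100A10 (0.0605), each without control replicate 2. In Ramos, MCM6 lost its call without Ramos replicate 1 (0.109) or any 1 KMH2 control array (0.0517 to 0.0875), UHRF1 without any 1 KMH2 control array (0.0669 to 0.0809), CDKN2B without Ramos replicate 2 (0.104) or KMH2 control replicate 2 (0.0651) or 3 (0.0723), and STK36 without KMH2 control replicate 1 (0.0672) or 3 (0.0747). The Ramos difference of POLA1 was -2.18 without Ramos replicate 1 and -0.67 without Ramos replicate 2, that of UHRF1 -1.60 and -0.33, and that of MAPK12 0.34 without Ramos replicate 1. Signals near the low end, such as those of CCND1, of CCND2 in Ramos and of CCNE2 after glucosamine, hold background of unknown size that shrinks folds.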
